A study of Mus musculus with 9 samples.

Results

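The GIMAP genes (GTPases of immunity-associated proteins) were taken as all genes whose symbol is Gimap and a number, which gave 8 of the 1710 genes of the deposited table: Gimap8, Gimap9, Gimap4, Gimap6, Gimap7, Gimap1, Gimap5 and Gimap3, in their order along chromosome 6. Any other GIMAP gene is not analysed here. The samples were wild-type mouse brain tissue labelled "brain ctx", from the centre of the injected area 10 days after a stereotaxic injection. PBS, LowDose and HighDose had 3 libraries each. PBS is a buffered salt solution, and the doses were of adeno-associated virus (AAV9), a small virus with a DNA genome that serves as a gene delivery vector. All 3 groups share the wild-type genotype and the injection procedure, the amounts of virus were not used here, and the sources used here do not give strain, age, pooling or whether the 3 libraries of a group came from separate animals, so p-values measure the spread between libraries.

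GIMAP proteins are GTP-binding proteins of lymphocytes, above all of T cells, and some are also made by the endothelium of blood vessels. They sit on or near intracellular membranes, and several are needed for lymphocytes to survive in the circulation. Their genes lie side by side in mammals and arose from each other by duplication. Healthy brain tissue holds few lymphocytes, and both lymphoid cells and endothelium can be a source of GIMAP transcripts there.

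Library totals ran from 18.3 to 23.7 M (M, 1e6 reads or read pairs), and 3 counts correspond to 0.126 to 0.164 CPM (counts per 1e6 of the library total). Each of the 1710 genes was listed with at least a 2-fold difference in mean FPKM (counts per kilobase of transcript and per 1e6 reads) between at least 1 pair of groups, and 1583 of them had enough counts to be tested. Tests of the GIMAP genes between groups therefore repeat part of that choice, and their counts are given beside the share of all tested genes. The tissue label was checked against markers: a list of 12 striatal genes summed to 1106 to 1635 CPM in the PBS libraries, while the 5 cortical neuron genes of a second list are not analysed here. The striatal list summed to 379 to 921 CPM in LowDose and 374 to 440 CPM in HighDose. All 12 of its genes fell in HighDose against PBS (edgeR, adjusted p under 0.05), beside 169 of the 1583 tested genes. By the same test 10 of the 12 fell in LowDose against PBS, beside 34 of the 1583. Whether the pieces of tissue differed in position cannot be told apart from the groups.

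The 8 genes fill 123.6 kb of chromosome 6 (GRCm38, the assembly of mm10; positions 48647234 to 48770851, GENCODE M21), all protein coding, 6 on the plus strand and Gimap6 and Gimap3 on the minus strand. Upstream sequences of the 3 genes with the largest changes, Gimap3, Gimap4 and Gimap7, and of Gimap6, the most abundant member, are shown to let the neighbours be compared. They are RefSeq promoter windows on GRCm38.p6, up to 250 bases before the annotated start, with bases that lie in an annotated exon left out, 5′ to 3′ on the strand of each gene. Capitals mark matches on either strand to 4 motifs: the ETS core GGAAGT, the RUNX motif TGTGGT, the interferon-stimulated response element (ISRE, by name) and the STAT (GAS) motif TTCNNNGAA. The windows are chr6:48770852-48771101 for Gimap3 (minus strand), chr6:48684328-48684548 for Gimap4 (plus), chr6:48718371-48718606 for Gimap7 (plus) and chr6:48708245-48708494 for Gimap6 (minus).
Gimap3: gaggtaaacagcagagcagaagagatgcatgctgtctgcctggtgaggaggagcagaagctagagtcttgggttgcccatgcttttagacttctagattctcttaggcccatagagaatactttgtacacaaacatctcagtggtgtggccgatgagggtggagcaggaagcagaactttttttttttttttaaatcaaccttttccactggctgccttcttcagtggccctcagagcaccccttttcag
Gimap4: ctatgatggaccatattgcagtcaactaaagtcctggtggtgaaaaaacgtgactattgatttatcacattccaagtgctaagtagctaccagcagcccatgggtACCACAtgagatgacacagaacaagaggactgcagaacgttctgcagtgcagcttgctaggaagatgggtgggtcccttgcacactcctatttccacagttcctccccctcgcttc
Gimap7: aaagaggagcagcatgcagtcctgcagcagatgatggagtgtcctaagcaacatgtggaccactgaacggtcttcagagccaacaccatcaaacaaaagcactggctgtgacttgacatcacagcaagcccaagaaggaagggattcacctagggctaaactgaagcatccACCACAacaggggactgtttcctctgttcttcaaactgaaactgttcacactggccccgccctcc
Gimap6: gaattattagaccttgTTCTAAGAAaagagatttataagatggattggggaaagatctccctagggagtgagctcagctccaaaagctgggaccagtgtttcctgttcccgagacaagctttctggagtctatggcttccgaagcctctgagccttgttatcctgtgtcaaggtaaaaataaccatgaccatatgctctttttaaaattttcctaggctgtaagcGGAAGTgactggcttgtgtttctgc
In the windows shown, Gimap4 and Gimap7 each held the RUNX letters on the strand opposite to the gene (capitals ACCACA), Gimap6 held a GAS match (TTCTAAGAA) and an ETS core, and Gimap3 held none of the 4. Over the 8 genes, with windows of 250 bases and both strands, the RUNX letters occurred in 3 and in 14.0% of 32851 promoters of the genome. The ETS core occurred in 2 of 8 genes and 19.7% of promoters, and the GAS letters in 2 of 8 and 7.02%. The interferon-stimulated response element occurred in 0 of 8 and 2.98%. These are matches of letters and not binding sites.

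In PBS tissue the family was led by Gimap6, which binds a protein of the autophagy machinery. Gimap6 stood at 3.87, 5.42 and 3.78 CPM in PBS replicates 1 to 3, and no library of any other member reached that level in PBS. Per transcript length, Gimap6 had 2.67 ± 0.571 FPKM (SD, n = 3), followed by Gimap1, a gene needed for mature T and B cells, with 0.877 ± 0.318. Gimap8 (0.343 ± 0.0971), Gimap4 (0.320 ± 0.101), Gimap9 (0.313 ± 0.124) and Gimap5 (0.233 ± 0.0231 FPKM) came next. Each of these neighbours overlapped the next in range, except that every Gimap6 value lay above every Gimap1 value and every Gimap1 value above every Gimap8 value. Gimap7, with 1, 1 and 0 counts, and Gimap3, with 0, 1 and 0, were at or under the 3-count floor in every PBS library.

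The 8 genes summed to 6.81, 9.64 and 7.38 CPM in PBS and 6.83, 9.06 and 6.79 CPM in LowDose, so that both groups covered nearly the same range. HighDose had 31.6, 49.5 and 56.6 CPM, each value more than 3 times the highest of the other groups. In LowDose the order per length was the same as in PBS from Gimap6 (2.47 ± 0.574 FPKM) and Gimap1 (0.677 ± 0.0945) down to Gimap5 (0.210 ± 0.0721), with Gimap3 at 0.127 ± 0.0808 above Gimap7 at 0.0267 ± 0.0462. In HighDose, Gimap6 (8.83 ± 2.38 FPKM) and Gimap4 (7.06 ± 1.81) led and overlapped in range, although Gimap6 was the higher in all 3 libraries. Gimap3 (3.58 ± 1.28) came next and overlapped Gimap1 (1.93 ± 0.476). Gimap8 (1.46 ± 0.434), Gimap9 (1.44 ± 0.552), Gimap7 (1.26 ± 0.270) and Gimap5 (0.980 ± 0.477) followed, each overlapping its neighbour.

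**Figure D1:**
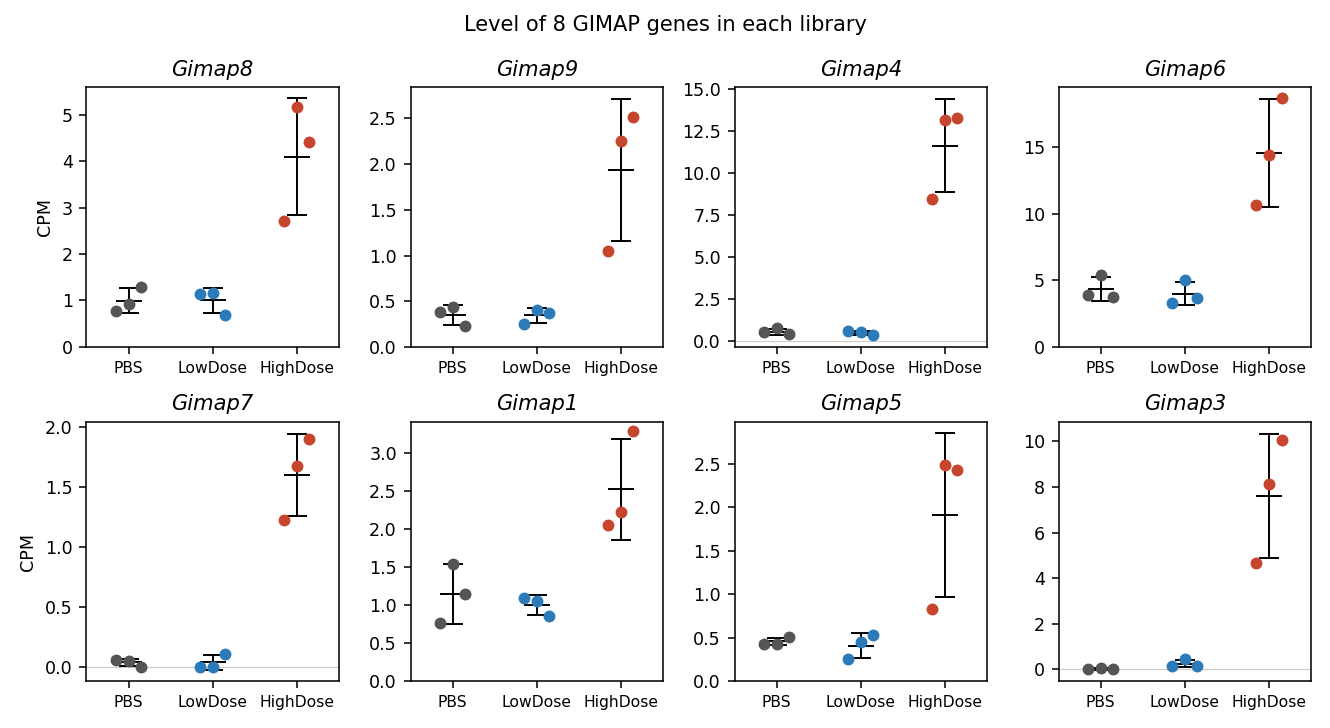
Level of each of the 8 GIMAP genes in CPM (linear axes that differ between panels) in the 3 libraries of PBS, LowDose and HighDose. Points are libraries, from replicate 1 at the left to replicate 3, and lines the mean ± SD; in each panel the 3 HighDose points lie above all PBS and LowDose points, and HighDose replicate 1 is the lowest of its group.

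HighDose against PBS asked what the larger amount of virus changed. Gimap3, Gimap7 and Gimap4 showed the largest differences. Gimap3 and Gimap7 were at or under the 3-count floor in PBS and reached 4.68 to 10.1 and 1.23 to 1.91 CPM, and Gimap4 went from 0.415 to 0.775 CPM to 8.44 to 13.3 CPM, while Gimap6 and Gimap1, the members most abundant in PBS, showed the smallest. All 8 were higher (edgeR quasi-likelihood test, Benjamini-Hochberg adjusted p under 0.05), against 86.3% of the tested genes, and in all 8 every HighDose library lay above every PBS library, against 85.8%. The median log2 change was 2.25 over the 8 and 1.90 over all tested genes. Of the 8, only 4 (Gimap1, Gimap4, Gimap6 and Gimap8) would have passed the low-count filter on PBS and LowDose alone. All 8 were also listed with at least a 2-fold difference between a pair of groups, as was every gene of the table. The count therefore carries no support of its own for any member, above all for Gimap3, Gimap5, Gimap7 and Gimap9. In bulk tissue, more cells of a type and more RNA per cell cannot be told apart.

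Gimap3, a close relative of Gimap5 that acts in T cell survival, had 0, 1 and 0 counts in PBS and 107, 170 and 232 in HighDose, that is, 4.68, 8.13 and 10.1 CPM. The groups were far apart, and the ratio rests on a PBS sum of 1 count. That ratio, 509 counts against 1 scaled by library totals, was 462 (exact 95% counting interval 82.6 to 18288, counting error only). The fitted log2 change was 8.42 ± 0.66 (SE, adjusted p = 2.07e-15), rank 23 from the highest of the 1583 tested genes, and it depends on the prior count. Without PBS replicate 2, which holds the only PBS count, it was 10.35.

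Gimap7, whose protein forms GTPase dimers, had 1, 1 and 0 counts in PBS and 28, 35 and 44 in HighDose. No library of the groups came near the other group. The ratio of the summed counts, 107 against 2, was 48.6 (13.1 to 406), and the fitted log2 change was 5.37 ± 0.79 (adjusted p = 7.23e-08).

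Gimap4, which is tied to T cell death, stood at 0.545, 0.775 and 0.415 CPM in PBS and at 8.44, 13.2 and 13.3 CPM in HighDose. Its counts, 35 in all in PBS and 775 in HighDose, make it the member with both a large change and a measurable level in the controls. The log2 change was 4.32 ± 0.36 (adjusted p = 1.52e-14), rank 286 of 1583.

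Gimap6 stood at 10.6, 14.4 and 18.7 CPM in HighDose, against 3.78 to 5.42 in PBS. The groups did not overlap, and the log2 change was 1.74 ± 0.27 (adjusted p = 2.01e-07), below the median of all tested genes. Scaled within the listed genes with TMM, where the median of all tested genes is 0.19, the value of Gimap6 was 0.021 (adjusted p = 0.922) and the call was lost.

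Gimap9 stood at 0.382, 0.436 and 0.231 CPM in PBS and 1.05, 2.25 and 2.51 in HighDose, a log2 change of 2.46 ± 0.51 (adjusted p = 3.21e-05). Gimap8, a larger member with several GTPase domains, stood at 0.763, 0.920 and 1.29 CPM in PBS and 2.71, 5.17 and 4.42 in HighDose, a log2 change of 2.03 ± 0.39 (adjusted p = 7.55e-06). Gimap5, whose loss in mice leaves few lymphocytes, stood at 0.436, 0.436 and 0.507 CPM in PBS and 0.831, 2.49 and 2.43 in HighDose, a log2 change of 2.04 ± 0.50 (adjusted p = 0.000265). Replicate 1 of HighDose was far below the other two for Gimap5 and Gimap9 but stayed above PBS. With TMM scaling none of these 3 genes passed the threshold (0.73, 0.32 and 0.30 on the log2 scale for Gimap9, Gimap8 and Gimap5).

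Gimap1 showed the smallest difference. It stood at 0.763, 1.55 and 1.15 CPM in PBS and 2.06, 2.23 and 3.29 in HighDose, a log2 change of 1.12 ± 0.40 (adjusted p = 0.00770), and its direction turned when libraries were scaled by TMM (-0.58), by DESeq2 size factors (-0.56) or by the summed listed counts (-0.55). Without PBS replicate 1, the lowest, it was 0.91 (adjusted p = 0.0580). Gimap1 is also the least certain measurement: its exons share 1305 bases with other annotated genes, among them the antisense gene Gimap1os, and 31.4% of its 100-base stretches occur in transcripts of another gene. Its estimated counts were not whole in 3 of 9 libraries. The sources used here do not give the strand setting of the counting, so reads of Gimap1 and Gimap1os cannot be told apart. Gm28053, a gene on the same strand as Gimap1, also overlaps its exons, and it overlaps those of Gimap7 by 81 bases and of Gimap5 by 153.

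**Figure D2:**
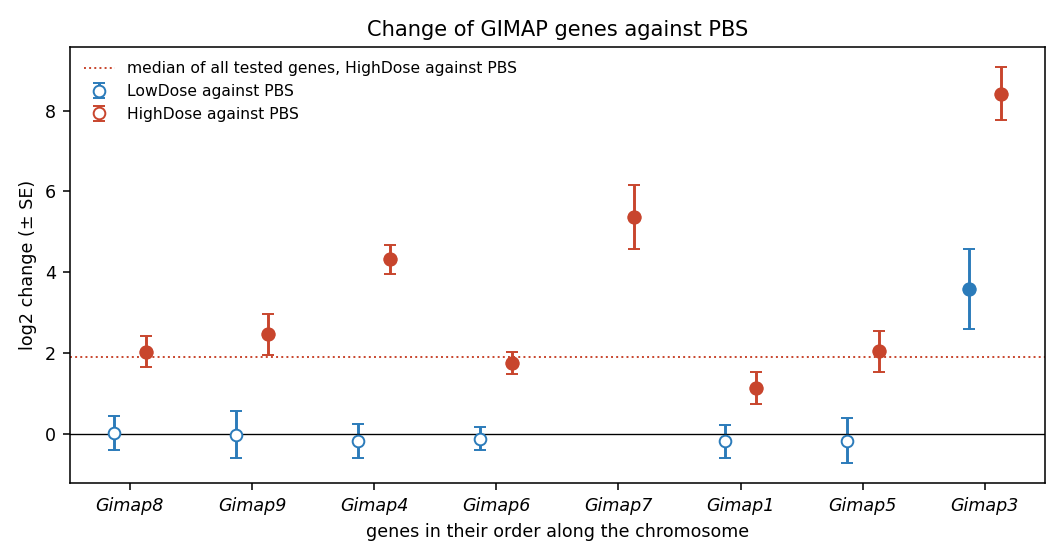
Log2 change (± SE) of the GIMAP genes against PBS, in chromosomal order, for LowDose (blue) and HighDose (red); filled points have an adjusted p under 0.05. The HighDose values run from 1.12 (Gimap1) to 8.42 (Gimap3) around the dotted median of all tested genes at 1.90, the only filled LowDose point is Gimap3 at 3.58, and no LowDose point is drawn for Gimap7, which had 2 counts in each of these groups.

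Within the family the make-up differed between the groups, on a scale that no choice of library scaling affects. Gimap6 gave 51.1% to 58.3% of the summed GIMAP FPKM in the PBS libraries and 30.3% to 35.2% in HighDose. Gimap4 gave 5.13% to 7.44% in PBS and 24.0% to 29.2% in HighDose, and Gimap3 0% to 0.346% and 11.9% to 14.6%. Gimap1 gave 12.4% to 24.1% in PBS and 6.05% to 8.51% in HighDose. Gimap7 gave 0% to 0.971% in PBS and 4.56% to 5.26% in HighDose. None of these 5 pairs of ranges overlapped, while the ranges of Gimap5, Gimap8 and Gimap9 did. Gimap3 and Gimap7 passed the low-count filter only through HighDose, so their higher shares repeat part of that choice. Shares of a library add up to a fixed whole, so a higher share of any member lowers the others. The count of pairs therefore carries no support of its own. No test was made on the shares, since an exact permutation test of 3 against 3 libraries cannot pass the threshold. Of the 21.8 FPKM by which the family mean was higher in HighDose than in PBS, Gimap4 (6.74), Gimap6 (6.16) and Gimap3 (3.57) together made up 75.7%.

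**Figure D3:**
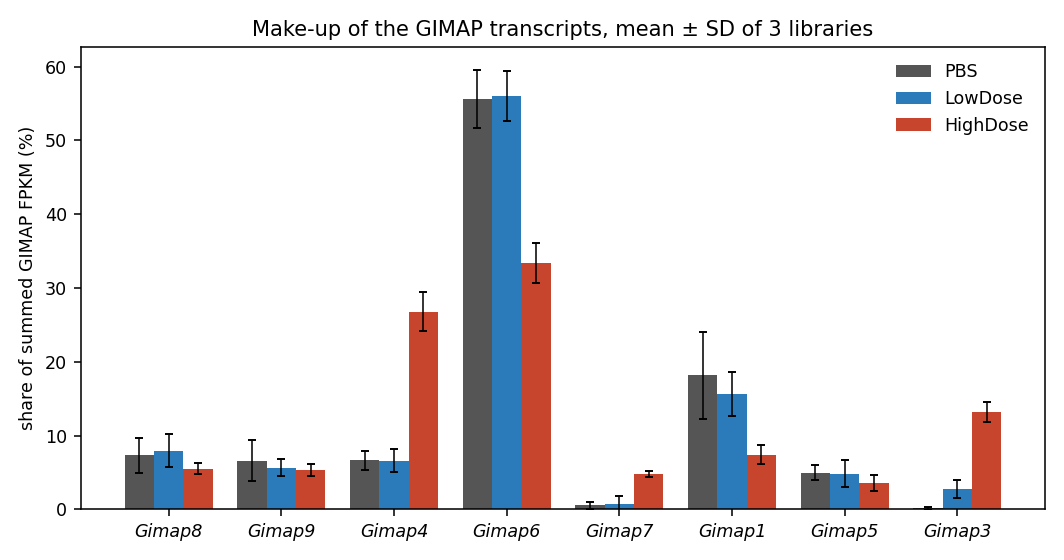
Share of each GIMAP gene in the summed FPKM of the 8 genes (percent, bars from 0), mean ± SD of 3 libraries in PBS, LowDose and HighDose. Gimap6 has 55.7% in PBS, 56.0% in LowDose and 33.4% in HighDose, while Gimap4 has 6.62%, 6.58% and 26.8% and Gimap3 0.115%, 2.74% and 13.2%.

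LowDose against PBS asked what the smaller amount changed. Gimap3 was the only GIMAP gene called, 1 of 8 higher against 0.442% of the tested genes (7 of 1583), and the other members gave no call. Over the whole table that count was 12 with the replicate number as a block, where Gimap3 stayed called (3.63, adjusted p = 0.0163), and 22 without LowDose replicate 1. Gimap3 had 4, 10 and 3 counts in LowDose replicates 1 to 3, against 0, 1 and 0 in PBS. Every LowDose library lay above every PBS library in 1 of 8 members, again Gimap3, against 6.57% of the tested genes. Gimap3 at this dose was singled out with earlier results of these data known, and it passed the low-count filter only through HighDose. Both counts of 1 of 8 therefore carry no support of their own. In CPM the LowDose libraries stood at 0.169, 0.450 and 0.160, so only replicate 2 was clear of the level of 3 counts.

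The ratio for Gimap3, 17 counts against 1, was 15.9 (exact 95% counting interval 2.50 to 666), and the fitted log2 change was 3.58 ± 0.98 (adjusted p = 0.0344), rank 4 of 1583. The call was lost without LowDose replicate 2 (2.93, adjusted p = 0.227), without PBS replicate 1 (3.19, adjusted p = 0.0737) or without PBS replicate 3 (3.09, adjusted p = 0.0962), and the value was 5.52 without PBS replicate 2. It was also lost when libraries were scaled by TMM (adjusted p = 0.122), by DESeq2 size factors (adjusted p = 0.117) or by the summed listed counts (adjusted p = 0.0674), with the Wald test of DESeq2 (adjusted p = 0.0829), and with adjustment over all annotated genes. Beside the Gimap3 values, the summed T cell list was 2.37 to 3.32 CPM in PBS and 2.89 to 4.09 in LowDose, highest in the same LowDose replicate 2. Other lymphoid lists had lower sums in LowDose, but their median log2 changes lay above 0, as did that of the T cell list (0.21). The B cell list (median 0.25) summed to 0.872 to 1.43 CPM in PBS and 0.548 to 1.02 in LowDose, ranges that overlap. The list of natural killer cells and cytotoxic effectors (median 0.28) summed to 0.436 to 0.872 CPM in PBS and 0.315 to 0.379 in LowDose. These sums rest on few counts, and Eomes of the cytotoxic list had 6, 3 and 10 in PBS and 0, 0 and 1 in LowDose. The part of these lists and of the lower striatal genes in the result was not tested. A share of the Gimap3 sequence also occurs elsewhere (8.15% of 50-base and 1.65% of 100-base stretches, mostly in Gimap5), while Gimap5 itself had 8, 9 and 11 counts in PBS and 6, 10 and 10 in LowDose.

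For the other members with reads, the LowDose log2 changes lay between -0.19 (Gimap1) and 0.016 (Gimap8), with adjusted p of 0.935 to 0.996. Gimap6, the best measured, had 259 counts in LowDose and 265 in PBS, a ratio of 0.917 (95% counting interval 0.770 to 1.09). Gimap4 had 33 and 35 counts, a ratio of 0.885 (0.533 to 1.47), so that a change well below that seen in HighDose could have passed unseen. Gimap7 had 2 counts in each group, and no ratio is given.

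HighDose against LowDose asked how the doses differed. All 8 genes were higher in HighDose, against 88.1% of the tested genes, with no overlap of libraries in all 8, against 86.5%, and a median of 2.35 against 1.88. Gimap7 had 0, 0 and 2 counts in LowDose and its log2 change was 5.44 ± 0.79 (adjusted p = 5.11e-08), or 8.12 without LowDose replicate 3. Gimap3 differed by 4.83 ± 0.45 (adjusted p = 6.16e-13) and Gimap4 by 4.50 ± 0.36 (adjusted p = 5.58e-15). Gimap9 (2.48), Gimap5 (2.22), Gimap8 (2.02) and Gimap6 (1.86) lay close together. Gimap6 turned to -0.041 when scaled by the summed listed counts, and Gimap1, at 1.32 ± 0.40 (adjusted p = 0.00242), turned to -0.44 (TMM), -0.40 (DESeq2 size factors) and -0.57 (summed listed counts). HighDose shares its libraries between both comparisons, so these values add no independent evidence to those against PBS.

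Markers of the cells known to express GIMAP genes were set beside the family. Of 21 T cell genes 17 were tested, and all 17 rose in HighDose against PBS, where 86.3% of all tested genes did. Their median log2 change was 5.18 (4.99 with the genes at 0 in PBS set to their bound), against 1.90 over all tested genes. Cd3d and Cd27 were at 0 in all PBS libraries. Cd3d, which encodes a CD3 chain of the T cell receptor, had 105 counts in HighDose, at least 31.8-fold higher than a floor of 3 counts over the PBS group, and the lowest of the list, the kinase gene Zap70, changed by 1.89. Cd3e had 2 counts in PBS, 3 in LowDose and 106 in HighDose, Cd8a 3, 3 and 234, and Cd4 is not analysed here. Cd3d, Cd3e and Cd8a had at most 3 counts over PBS and over LowDose, so they passed the low-count filter through HighDose. The count of risen genes was thus partly fixed in advance. For the lists here and below, how many genes passed only through HighDose was not counted. All 10 genes of natural killer cells and cytotoxic effectors rose (median 6.23, or 5.69 at the bound), up to Gzmb at 8.57, and 4 of 5 tested B cell genes (median 3.64), with Cd79b at 1.01 (adjusted p = 0.0680). When libraries were scaled within the listed genes (each of the 3 ways above), 16 of 17 T cell genes, 9 of 10 cytotoxic genes and 4 of 5 B cell genes were called higher and none was called lower, where 600 to 607 of the 1583 tested genes were called higher. All 4 tested monocyte and neutrophil genes rose (median 6.16; 3 of 4 under these scalings), while of 5 tested genes of resting microglia 2 rose and 3 fell, and all 5 fell under these scalings. In LowDose 0 of the 17 T cell genes were called by edgeR, 1 had an unadjusted p under 0.05, and DESeq2 called 0. That gene was Cd5, with 0, 0 and 1 counts in PBS and 12, 5 and 2 in LowDose (log2 3.72 ± 1.11, adjusted p = 0.0599), and the transcription factor gene Eomes of the cytotoxic list fell from 6, 3 and 10 counts to 0, 0 and 1 (edgeR, adjusted p = 0.0303; not called by DESeq2).

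Of 16 endothelial genes only 3 were tested, and Pecam1, Cdh5 and Cldn5 are not analysed here. Ly6c1 (1.11) and Vwf rose and Slco1a4 fell by 1.03 on the log2 scale, and all 3 fell when scaled within the listed genes. Their sum was 98.1 to 126 CPM in PBS, 91.1 to 102 in LowDose and 134 to 163 in HighDose. The part of the endothelium in the GIMAP values was not tested.

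The GIMAP genes and the T cell genes kept different proportions in the groups. The ratio of the GIMAP sum to the T cell sum was 2.83, 4.06 and 2.22 in PBS, 2.31, 2.21 and 2.35 in LowDose, and 1.02, 0.914 and 0.971 in HighDose. HighDose lay below both other groups in every library, and no scaling of the libraries enters this ratio. Both sums hold only listed genes, each with at least a 2-fold difference between a pair of groups, so the ratio repeats part of that choice. In PBS the T cell sum rests on low counts, with Cd3e at 2 and Cd8a at 3 over the group. Against Ptprc, the gene of the general leukocyte protein CD45, the ratio was 2.27 to 3.72 in PBS, 2.08 to 3.01 in LowDose and 0.837 to 0.977 in HighDose. In PBS, Gimap6 alone stood at 4.36 ± 0.924 CPM (SD, n = 3) beside 0.0343 ± 0.0299 CPM for Cd3e, a level under the floor. HighDose replicate 1 was the lowest of its group for all 8 GIMAP genes, and also for the T cell list (31.0, against 54.2 and 58.3 CPM) and for Ptprc (34.0, against 50.7 and 67.6 CPM).

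**Figure D4:**
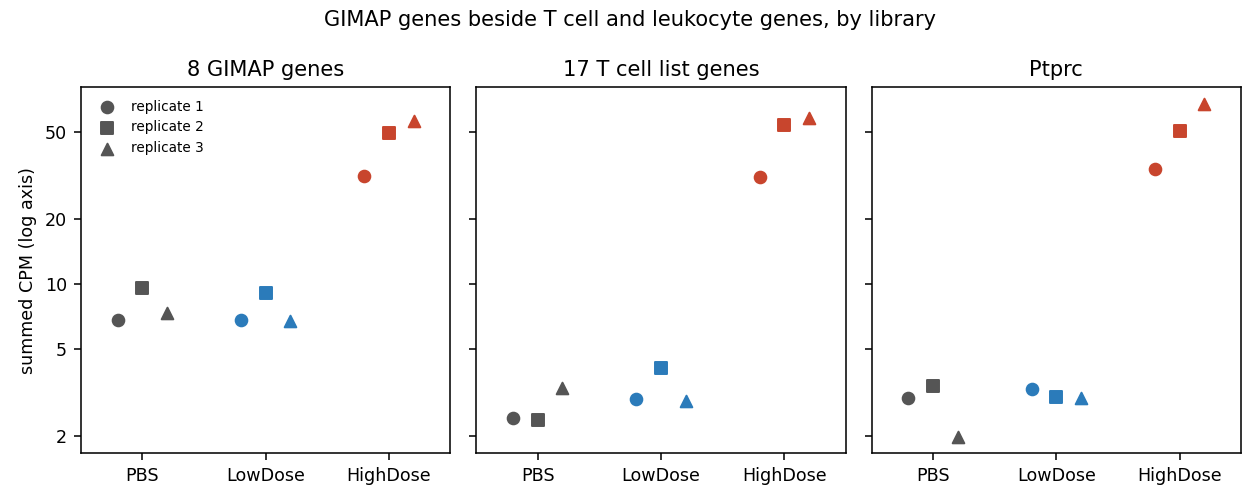
Summed CPM (log axis) of the 8 GIMAP genes, of 17 T cell list genes and of Ptprc in each library, with a marker shape for each replicate. In PBS and LowDose the GIMAP sum (6.79 to 9.64) lies above the T cell sum (2.37 to 4.09), in HighDose the sums are close (31.6 to 56.6 and 31.0 to 58.3), and HighDose replicate 1 is the lowest of its group in all 3 panels.

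The pathways in which GIMAP proteins act were described from lists. Of 19 genes of lymphocyte survival through interleukin 7 and the Bcl2 family, 10 were tested and all 10 rose in HighDose against PBS, as did 86.3% of all tested genes (median 3.18, against 1.90 over all tested genes), from Bcl2l11, which encodes the death-promoting protein Bim, at 1.04 ± 0.24 (adjusted p = 0.000151) to Bcl2a1a, a survival gene with near-identical copies, at 5.85. Il7r, the interleukin 7 receptor, had 28 counts in PBS, 36 in LowDose and 358 in HighDose. Bcl2, Bax and Bak1 are not analysed here, and neither is any of the 10 autophagy genes listed for Gimap6, Gabarapl2 included. Of 12 lymphocyte transcription factors 7 were tested and all 7 rose (median 2.57, beside the same 86.3% and 1.90), from Ets1 at 0.70 ± 0.23 (adjusted p = 0.00380) to Runx3 at 6.75. All 12 tested genes of 14 for lymphocyte recruitment rose (median 4.29, beside the same 86.3% and 1.90), from the integrin gene Itga4 at 1.12 to the chemokine gene Cxcl10 at 9.28. When scaled within the listed genes, where 600 to 607 of all 1583 were called higher, 6 of the 10 survival genes were called higher and 2 lower. Bcl2l11, Bbc3, Bid and Jak3 were below 0. Under the same scalings 3 of the 7 transcription factors were called higher and 1 lower (Ets1 and Ikzf1 were below 0), and 9 of the 12 recruitment genes higher and 2 lower (Itga4 and Vcam1 were below 0). In LowDose, edgeR called 0 of the survival genes (1 lower at an unadjusted p under 0.05) and 0 of the recruitment genes (1 higher), and DESeq2 called 0 of either. Of the 7 transcription factors edgeR called 1 lower, Eomes (-3.89, adjusted p = 0.0303), beside 34 of all 1583 tested genes, and DESeq2 called 0.

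The other immune GTPases, the guanylate-binding proteins and immunity-related GTPases, are interferon-induced and act inside infected cells. The list of 18 also holds Gvin1, a large interferon-induced GTPase gene outside both families. All 18 rose in HighDose, beside 86.3% of all tested genes, and under the scalings within the listed genes, beside 600 to 607 of 1583 (median 5.77 by library totals, against 1.90 over all tested genes), from Gvin1 at 3.96 to Gbp10 at 7.50, and their sum went from 68.6 to 70.3 CPM in PBS to 2381 to 4111 in HighDose. Of the GIMAP genes, Gimap3, Gimap7 and Gimap4 lay in or above that range of changes, and the other 5 lay below its lowest member, Gvin1. In LowDose 1 of the 18, Tgtp1, fell (-1.47, adjusted p = 0.00417, also called by DESeq2), beside 34 of the 1583 tested genes called lower by edgeR. Neither edgeR nor DESeq2 called any of the 18 higher. At an unadjusted p under 0.05 by edgeR, 5 of the 18 were lower (Tgtp1, Gbp4, Gbp7, Gbp9 and Gbp10) and 1 was higher, Gbp11 (1.18, adjusted p = 0.393). The share of all tested genes at that unadjusted threshold was not counted. Counts at this threshold, here and for the lists above, are therefore not read as changes of a list.

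The genes most like each member across the 9 libraries were named by Pearson's r of log2(CPM + 0.5), as a description, since all points share the step between HighDose and the other groups. Gimap3 was closest to S100a11 (0.999), Calhm6 (0.998) and H2-T22 (0.998), where the median of 1252 genes was 0.961. Calhm6, like Gimap3, was under the 3-count level in PBS (0.0343 CPM) and stood at 0.241 CPM in LowDose and 4.66 in HighDose. Gimap4 was closest to Trim34a (0.999), Dhx58 (0.999), a gene of the antiviral RNA sensor family, and Ifi44 (0.998, median 0.962), all interferon-stimulated genes. Gimap7 was closest to Parp11 (0.999), Traf1 (0.998) and Apobec1 (0.998). Gimap6 was closest to Vasp (0.994), Atp13a4 (0.993) and Il1a (0.990, median 0.952). Gimap8 (Inpp1, 0.987), Gimap9 (Lrrc25, 0.994), Gimap5 (Ccl9, 0.984) and Gimap1 (Zfp105, 0.973) each had a different nearest gene.

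Transcript length implied by counts, FPKM and library total was used to see whether the mix of transcripts of a gene differed. Gimap6 gave 1594 to 1665 bases in all 9 libraries, Gimap7 1263 to 1271 and Gimap3 2118 to 2138 bases in HighDose, where these 2 could be read. Gimap4 gave 1685, 1557 and 1721 bases in HighDose replicates 1 to 3. Gimap1 gave 1461 to 1500 bases in all PBS and LowDose libraries except PBS replicate 3 (1067), and 1310, 1276 and 1331 in HighDose. The HighDose values of Gimap1 thus lay between those of PBS replicates, and its FPKM rests on a length that differed between libraries. Exons of Gimap8, Gimap9 and Gimap4 shared no stretch of 50 bases with another gene.

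Around the cluster, 14 other protein-coding genes lie within 200 kb, and 1 of them was analysed. Aoc1, an amine oxidase gene 102 kb away, changed by 2.09 ± 0.62 in HighDose against PBS (adjusted p = 0.00186) and by 0.22 ± 0.70 in LowDose (adjusted p = 0.951). The other 13 are not analysed here.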

How the data were processed

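Bulk RNA sequencing of 9 libraries was analysed, 3 each of PBS, LowDose and HighDose, grouped by their titles. The deposited table holds, for each gene and library, an estimated count by the authors, with build mm10 and the tools edgeR and DESeq2 named in the submitters' processing notes without a role. The authors deposited FPKM values in the same table, per the file headers. Aligner, counter, strand setting, read length and the rule for listing a gene: not given in the sources used here. Between 7.66% and 14.0% of a library's estimated counts had decimals, and all were rounded to whole numbers.

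Because the 1710 listed genes all differ at least 2-fold between a pair of group means, column sums are not depths. The total of each library was worked out from count, FPKM and length, as the median over 23 to 68 single-transcript genes of GENCODE M21 (FPKM of at least 5, 100 counts, 600 bases), and used as library sizes; 1704 identifiers were found in GENCODE M21. After filterByExpr (minimum count 10), edgeR 4.0.16 (R 4.3.3, limma 3.58.1) fitted the 3 groups in 1 quasi-likelihood model over all 1583 tested genes, with Benjamini-Hochberg adjustment and a threshold of 0.05. SE values are approximate, above all near 0 counts. CPM is counts over library total, and values after ± are SD for levels and SE for log2 changes.

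Every gene with a symbol of Gimap and a number was named. So were, for each, the 3 named genes of highest correlation with mean CPM of at least 1, the highest and lowest tested member of each list, and a fixed set of 14 genes. Cd27, Vwf, Aoc1, Ikzf1, Vcam1, Bbc3, Bid, Jak3, Gbp4, Gbp7 and Gbp9 were singled out after their values were seen. The members and lists were chosen with earlier results of these data known. Ratios of counts carry exact (Clopper-Pearson) 95% intervals for counting error only. Alternative scalings were the summed listed counts, TMM and the size factors of DESeq2 1.42.0. Other alternatives were no filter or 1 CPM in 3 libraries, the DESeq2 Wald test, only the groups compared, a replicate block, a looser choice of genes for the totals and leaving out each library. Adjustment over all 55451 annotated genes and totals without the listed genes were chosen after seeing the data. The replicate numbers, whose meaning the labels do not state, were checked by the correlation of deviations from the group means. All 3 same-numbered pairs of PBS and LowDose lay over 0.1 (0.137 to 0.246, against -0.147 to 0.013 for the 6 other pairs). Of PBS and HighDose, and of LowDose and HighDose, 1 of 3 pairs did. The numbers may thus pair PBS and LowDose, which the labels do not state. The reported fit used no pairing, and the fit with a replicate block is given beside it. The pipeline was tested on simulated data. Intervals came from scipy 1.17.1, tables from pandas 2.3.3 and plots from matplotlib 3.10.9, all in Python 3.11.15.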

Additional observations from a re-analysis of the deposited data

How the results depend on the processing

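Scaling within the listed genes, most of which are higher in HighDose, moved the median change of all tested genes from 1.90 to 0.19 (TMM), 0.22 (DESeq2 size factors) and 0.22 (sum of listed counts) in HighDose against PBS. The GIMAP genes called higher then fell from 8 to 3 under each of the 3 scalings, in HighDose against PBS and in HighDose against LowDose; the 3 are Gimap3, Gimap4 and Gimap7. Genes called higher and lower over the whole table went from 1366 and 169 to 600 and 464 (TMM), 605 and 455 (DESeq2 size factors) and 607 and 454 (sum of listed counts). Gimap1 turned to -0.58, -0.56 and -0.55 in HighDose against PBS and to -0.44, -0.40 and -0.57 in HighDose against LowDose under the same 3 scalings, and Gimap6 to -0.041 in HighDose against LowDose with the sum of listed counts. Adjusted over all annotated genes, Gimap1 lost its call in HighDose against PBS (adjusted p = 0.270) and against LowDose (0.0849).

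For LowDose against PBS the count of 1 GIMAP gene became 0 under the 3 scalings, with the DESeq2 Wald test, with adjustment over all annotated genes, and with only the groups compared, where Gimap3 failed the filter; over the libraries left out it ran from 0 to 1. Genes called higher over the whole table, 7 in the reported fit, were 3 with TMM, 11 with only the groups compared, 1 with adjustment over all annotated genes and 5 to 22 over the libraries left out (22 without LowDose replicate 1); genes called lower, 34 in the reported fit, were 2 to 3 under the 3 scalings, 7 with adjustment over all annotated genes and 18 to 57 over the libraries left out. The cause was not tested. Leaving out a library gave 7 to 8 calls in HighDose against PBS and 8 in HighDose against LowDose. Gimap5 was not tested with the filter of 1 CPM.

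The replicate number as a block left the GIMAP counts at 8, 1 and 8, with Gimap3 at 3.63 in LowDose against PBS (adjusted p = 0.0163), and genes called higher in LowDose went from 7 to 12 and lower from 34 to 50. It changed no call of a GIMAP gene. The numbers track together between PBS and LowDose, and only 1 of 3 pairs did so between HighDose and either other group. Depth limits Gimap3 and Gimap7 in PBS and Gimap7 in LowDose, all at 0 to 2 counts per library.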
